A study of Mus musculus with 4 samples.

Results

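Heterotrimeric G protein genes were described in unsorted thymus cells (total thymocytes) of mice hypomorphic for Atg16l1 and of control mice. The genes were the G protein beta subunits Gnb1, Gnb2, Gnb3, Gnb4 and Gnb5 together with Gnai2, the main Gi alpha subunit of lymphocytes. They were taken by name: every probe set whose platform annotation gave one of these symbols alone was used, which came to 12 probe sets for 6 of the 18193 genes named by the arrays. The family was followed up because Gnb4 had already been found lower in hypomorph thymocytes on these same arrays. The hypomorph against control values of Gnb4 and its relatives are therefore a description, given without a test.

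The hypomorph group held 2 mice with an allele of Atg16l1 that leaves the gene with reduced function, and the control group held 2 mice that the labels call wild-type. All 4 animals were 7 weeks old and untreated as far as the labels say, each group held 1 male and 1 female, and 1 array was run per animal. The sources used here give neither the strain, nor how the allele was made, nor which array is from which sex. Over the probe sets kept, median deposited signals ranged from 23.5 to 38.4, so the arrays were brought to a common median. After this centring the median log2 change of the tested genes was 0.21, and relative changes below are given against it. Atg16l1 itself had signals of 108 and 70.8 in hypomorphs against 184 and 241 in controls, a log2 change of -1.57 ± 0.18 (SE, n = 2 and 2; limma adjusted p 0.0142). That call was lost without control replicate 1 (adjusted p 0.0751) and without control replicate 2 (0.0893), and also without centring, filter or variance trend, with adjusted p-values from 0.000107 to 0.274 among the alternatives. With 2 arrays per group, precision is limited throughout. Thymocyte markers such as Cd4 (signals of 1034 to 2337) and Rag2 (967 to 1888) were bright on all 4 arrays.

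As background, a heterotrimeric G protein consists of an alpha subunit that binds guanine nucleotide and a tightly joined beta-gamma dimer. An activated receptor makes the alpha subunit exchange GDP for GTP, after which alpha and beta-gamma each act on their own effectors. In thymocytes and other lymphocytes the Gi class carries signals from chemokine receptors and from the sphingosine 1-phosphate receptor, which steer cells through and out of the thymus. The beta subunits are WD-repeat propeller proteins. Gnb1 to Gnb4 are close relatives that pair with gamma subunits, whereas Gnb5 is more distant and pairs mainly with RGS proteins of the R7 group.

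Gnb4 was the member with the largest change, on 1 of its probe sets. The probe set 1419469_at had signals of 77.0 and 57.4 in hypomorphs against 190.4 and 464 in controls. The hypomorph values were thus both below the lower control, although hypomorph replicate 1 was the array with the highest median signal. On the centred log2 scale its mean was 5.94 ± 0.034 (SD, n = 2) in hypomorphs and 8.39 ± 0.76 (SD, n = 2) in controls. The log2 change was -2.45 ± 0.29 (SE), or -2.66 relative to the median of the tested genes, and the hypomorph level was 5.47-fold lower. This SE is limma's moderated one, which borrows from the spread of all tested probe sets. It is narrower than the spread of this probe set alone would give. Of the 22519 tested probe sets, 3 had a more negative change.

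The size of this difference depended on which control animal was taken. Control replicate 2 was 2.11-fold above control replicate 1, and a gap between the control arrays as wide as that was exceeded by 1.41% of tested probe sets. The hypomorph arrays lay close together, with a log2 gap of 0.048. Set against each hypomorph array in turn, control replicate 1 was 3.83- and 3.71-fold higher and control replicate 2 was 8.07- and 7.81-fold higher. The log2 change was -2.99 when control replicate 1 was left out and -1.91 when control replicate 2 was.

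The other Gnb4 probe sets were lower in hypomorphs too, by smaller amounts. The probe set 1419470_at, the brightest of the gene by its mean centred log2 signal, had signals of 141 and 148 in hypomorphs against 174 and 324 in controls. The groups did not overlap, but control replicate 1 was only 1.94- and 1.35-fold above the hypomorph arrays after centring. Its log2 change was -1.04 ± 0.24 (SE), or -1.25 relative to the median, and 67 tested probe sets had a more negative one. It was -0.69 with control replicate 2 left out and -1.38 with control replicate 1 left out. The dim probe set 1439632_at had signals of 10.03 and 12.1 against 22.0 and 41.1, with centred means of 3.57 ± 0.48 and 5.18 ± 0.45 (SD, n = 2 each), a difference of -1.61. It lay below the signal filter and was not fitted. On each of the 3 probe sets control replicate 2 was the highest array and control replicate 1 the next.

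**Figure D1:**
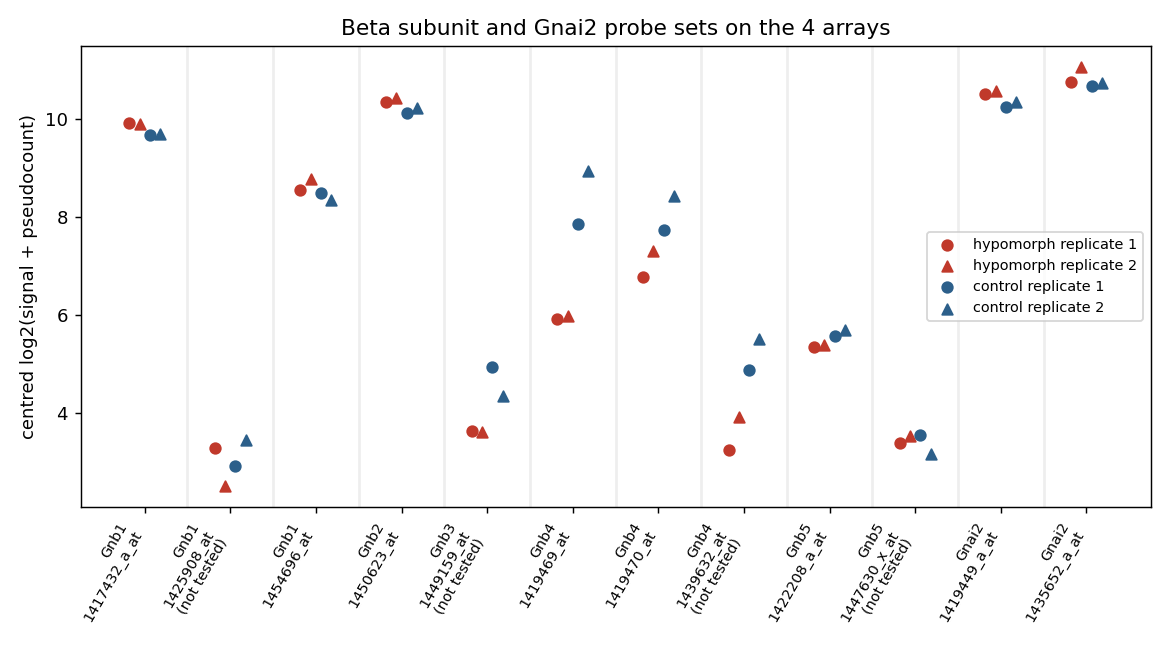
Centred log2 signals of the 12 probe sets of the beta subunits and Gnai2, with a point for each array (red for hypomorph, blue for control; circles for replicate 1, triangles for replicate 2). On the 3 Gnb4 probe sets, on Gnb3 and on Gnb5 1422208_a_at both blue points lie above both red points, while the bright Gnb1, Gnb2 and Gnai2 probe sets lie within a narrow range.

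The Gnb4 probe sets did not give the same size of change. The log2 signal of 1419470_at exceeded that of 1419469_at by 0.86 and 1.33 on the hypomorph arrays, and fell short of it on the control arrays, where the difference was -0.13 and -0.52. Their log2 changes differed by 1.41. The arrays therefore give a direction for Gnb4 but no single fold.

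Gnb4 can also be read against other members on the same array, which leaves out the centring. Relative to the mean log2 signal of the 5 bright probe sets of Gnb1, Gnb2 and Gnai2, 1419469_at was at -4.10 and -4.18 on the hypomorph arrays and at -1.98 and -0.94 on the control arrays. The gap between the highest hypomorph and the lowest control array was 2.11 on the log2 scale. For 1419470_at the 4 values were -3.24, -2.85, -2.11 and -1.46, with a gap of 0.74. For 1439632_at they were -6.78, -6.23, -4.97 and -4.37, with a gap of 1.26. Only the differences between arrays have a meaning here, since the level of a probe set also reflects how well its probes hybridise. The 5 reference probe sets changed about as much as the median tested gene. This reading therefore had to come close to the changes relative to that median, and it adds no separate support.

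**Figure D2:**
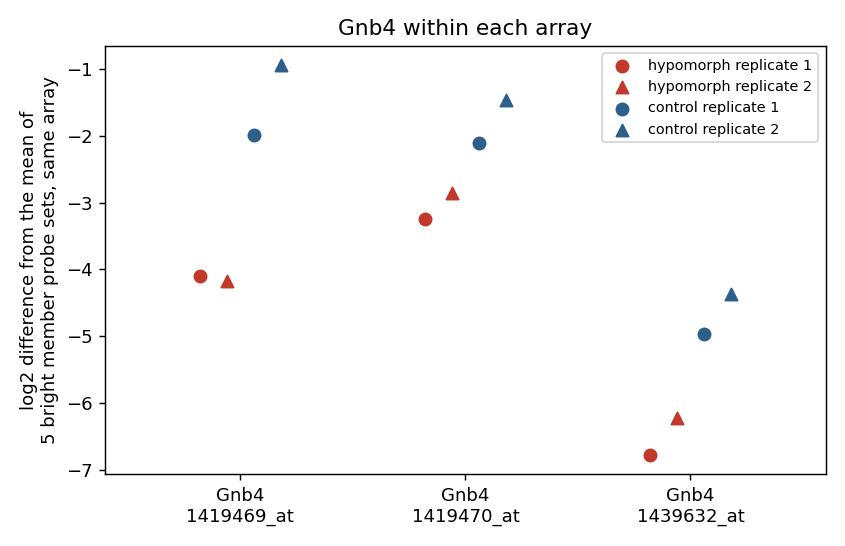
Log2 signal of each Gnb4 probe set minus the mean log2 signal of 5 bright Gnb1, Gnb2 and Gnai2 probe sets on the same array, a quantity that centring leaves unchanged. The hypomorph arrays (red) lie below the control arrays (blue) for each probe set, and the spread between the control arrays is widest for 1419469_at.

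Gnb1 and Gnb2, the widely expressed beta subunits, differed between the groups by as much as the median tested gene. The bright Gnb1 probe set 1417432_a_at had signals of 1264 and 907 in hypomorphs against 677 and 793 in controls, and centred means of 9.90 ± 0.015 and 9.69 ± 0.018 (SD, n = 2 each). Its log2 change was 0.22 ± 0.13 (SE), which is 0.0060 relative to the median. The Gnb1 probe set 1454696_at was at 489 and 415 against 296 and 309, with a relative change of 0.030. On the dim Gnb1 probe set 1425908_at, with signals of 10.4, 3.10, 3.94 and 8.16, the groups overlapped.

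Gnb2 gave signals of 1700.5 and 1313 in hypomorphs against 922 and 1148 in controls. Its centred means were 10.38 ± 0.060 and 10.17 ± 0.080 (SD, n = 2 each), and its log2 change of 0.21 ± 0.13 (SE) was -0.0016 relative to the median. Before the shift of the tested genes is taken off, the hypomorph arrays were above the control arrays for Gnb2 and for both bright Gnb1 probe sets.

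Gnb3, a beta subunit best known from cone photoreceptors, was dim. Its probe set 1449159_at had signals of 13.8 and 9.34 in hypomorphs against 23.2 and 17.0 in controls. The groups did not overlap, and the centred means were 3.61 ± 0.012 and 4.64 ± 0.43 (SD, n = 2 each), a difference of -1.03. This was -1.24 relative to the median, close to the -1.25 of Gnb4 1419470_at. The Gnb3 probe set lay below the signal filter and was not fitted. The Gnb5 probe set 1422208_a_at was at 50.9 and 37.7 against 37.2 and 47.1, so that the deposited signals overlapped and the centred ones did not. Its log2 change was -0.27 ± 0.28 (SE), or -0.48 relative to the median, where the former was smaller than its standard error. The other Gnb5 probe set, 1447630_x_at, of a type that can also match related transcripts, was dim (6.24 to 11.3) and overlapped between the groups.

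Gnai2, which couples chemokine receptors to their effectors, was the brightest member gene on the arrays. Its probe set 1435652_a_at had signals of 2259.7 and 2042 in hypomorphs against 1346 and 1632 in controls, with centred means of 10.91 ± 0.22 and 10.70 ± 0.053 (SD, n = 2 each). The log2 change was 0.21 ± 0.15 (SE), -0.0046 relative to the median. The probe set 1419449_a_at was at 1908 and 1448 against 1010.1 and 1238, with a relative change of 0.031. Both probe sets thus stayed with the median gene.

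Of the 12 probe sets, 8 passed the filter on low signals and entered the fit over all probe sets. In that fit 1 was called lower, 1419469_at of Gnb4, and 0 were called higher, with backgrounds of 0.0133% and 0.0488% of the 22519 tested probe sets (limma, adjusted p under 0.05). Nothing is read from this count, since the same contrast led to the family. The Gnb4 call was lost with quantile normalization, without the filter on low signals and without the variance trend, and 2 Gnb4 probe sets were called without hypomorph replicate 2. Without an overlap between the groups, 5 of the 12 probe sets were lower (3 of Gnb4 and 1 each of Gnb3 and Gnb5) and 5 were higher, where 14.7% and 28.2% of all probe sets kept were lower and higher in this way. In bulk tissue, fewer cells of a type and less RNA per cell cannot be told apart.

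**Figure D3:**
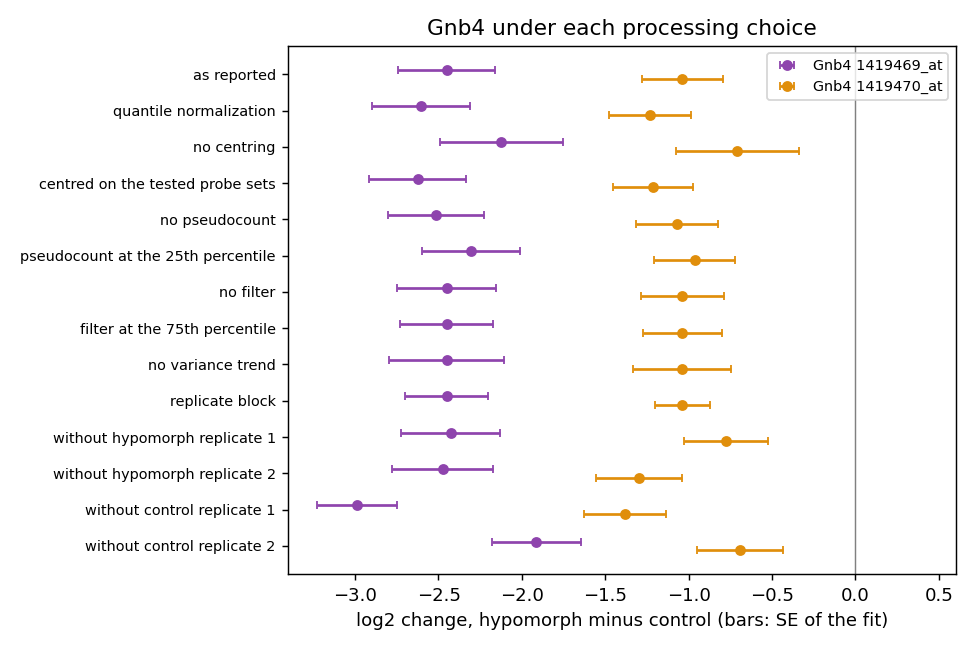
Log2 change (hypomorph minus control, with the SE of the fit) of the tested Gnb4 probe sets as reported and under each of 13 other processing choices. All values lie below 0 for both probe sets, between -2.99 and -1.91 for 1419469_at and between -1.38 and -0.69 for 1419470_at.

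The rest of the pathway was read from 8 lists of G protein signalling genes, chosen by name. Of their 92 genes, 88 were named alone by a probe set and 65 passed the filter, each taken by its brightest probe set. None of the 65 was called in limma, against a background of 0.0391% of 10235 tested genes, and 8 of them (12.3%) had an unadjusted p under 0.05, against 19.1% of all tested genes. Of these 8, 1 was a gamma subunit, 2 were effectors, 2 receptors, 1 a regulator and 2 assembly chaperones. Without hypomorph replicate 1 the gene Pik3cg was called. The median relative change of the 65 genes was -0.038, their range was -1.11 to 0.44, and 37 of them lay below the median of all tested genes. List medians moved when single arrays were left out. Without hypomorph replicate 2 they were -0.15 for the other alpha subunits, -0.26 for receptors and -0.12 for regulators, and without hypomorph replicate 1 they were -0.024 for the other alpha subunits and -0.039 for effectors. Without control replicate 2 the median was -0.088 for receptors and 0.089 for regulators. For assembly chaperones it ran from -0.0040 (hypomorph replicate 2 left out) to 0.065 (control replicate 1 left out).

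Gamma subunits, the partners of Gnb1 to Gnb4, had 5 of 11 genes above the filter, and 0 were called in either direction. Gng10 had signals of 1529 and 936 in hypomorphs against 464 and 929.8 in controls, with a log2 change of 0.53 ± 0.22 (SE; limma adjusted p 0.289) and a relative change of 0.32. Control replicate 1 was the lowest array for this gene. The groups did not overlap, although hypomorph replicate 2 and control replicate 2 were nearly equal in deposited signal. Gng2, common in blood cells, was at 94.6 and 60.9 against 45.6 and 69.0, and Gngt2 at 154 and 115 against 73.6 and 115, with relative changes of -0.12 and -0.022. The median relative change of the 5 was -0.022, and became 0.14 with control replicate 2 left out and -0.18 with control replicate 1 left out.

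Among the other alpha subunits 8 of 14 genes were tested and 0 were called, with a median relative change of -0.047. Gnai3, the close relative of Gnai2, had signals of 2186 and 1750 (hypomorph) and 1176 and 1526 (control), a relative change of 0.0055. Gnas, the Gs alpha subunit that activates adenylyl cyclase, was at 3077 and 2834 against 1920 and 2460.3 (relative change -0.10), and Gna13 had a relative change of -0.016. The values of these alpha subunits lay close to the median gene, as those of Gnai2 did.

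Of 12 tested effectors of beta-gamma dimers and adenylyl cyclases, 0 were called and the median relative change was -0.12. Pik3cg, the catalytic subunit of the phosphoinositide 3-kinase that beta-gamma activates, had signals of 318 and 440.3 in hypomorphs against 191 and 236 in controls. Its log2 change was 0.48 ± 0.24 (SE; limma adjusted p 0.342), and 0.94 without hypomorph replicate 1 (adjusted p 0.0172, and 0.0172 to 0.977 among the alternatives). Its regulatory partner Pik3r5 was at a relative change of 0.075. Among the phospholipases C, Plcb1 was at 35.9 and 18.9 against 38.9 and 40.9 (log2 change -0.90 ± 0.33, adjusted p 0.265), and Plcb4 was at a log2 change of 0.48 (adjusted p 0.293). Plcb1 and Plcb4 thus lay on opposite sides of the median without passing the test.

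All 12 receptors of the list that a probe set named alone were tested and 0 were called, with 9 below the median and a median relative change of -0.14. Cxcr4, the CXCL12 receptor of immature thymocytes, had signals of 3091 and 2149 in hypomorphs against 1467 and 1552 in controls, a log2 change of 0.44 ± 0.13 (SE; limma adjusted p 0.242). Ccr9, the CCL25 receptor and the brightest of the list, was at 7175 and 5544 against 5369 and 6350.4, a relative change of -0.43. Ccr7, which guides thymocytes to the medulla, was at a relative change of 0.11 and the exit receptor S1pr1 at -0.12. Cxcr3 was at 107 and 69.7 against 139 and 115, with a log2 change of -0.87 ± 0.22 (adjusted p 0.208). Cxcr5, a receptor of B cells and follicular helper T cells, was at a log2 change of -0.55 (adjusted p 0.393).

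Regulators of the cycle were tested for 15 genes, with 0 called and a median relative change of -0.022. Gpsm2, which binds Gi alpha subunits and orients the mitotic spindle, had signals of 334 and 273 in hypomorphs against 134 and 173 in controls, a log2 change of 0.65 ± 0.16 (SE; limma adjusted p 0.197). Rgs14, which speeds GTP hydrolysis by Gi alpha subunits, was at a relative change of 0.098, and the receptor kinases Grk5 and Grk6 were at 0.35 and -0.015. Of the RGS proteins that pair with Gnb5, Rgs9 alone passed the filter, at deposited signals of 57.3 and 48.2 against 43.7 and 49.7. After centring its log2 values were 5.50 and 5.72 against 5.79 and 5.76. The log2 change was -0.16 ± 0.27 (SE), or -0.37 relative to the median. Gnb1l, a WD-repeat gene outside the family, was at 108 and 97.9 against 57.5 and 67.7, a relative change of 0.16.

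Newly made beta subunits are folded by the chaperonin CCT with the help of the phosducin-like protein Pdcl. All 11 genes of the assembly list were tested, 0 were called, and 9 were higher in hypomorphs without an overlap between the groups, where 51.7% of tested genes were. Cct8 was at 2084 and 1418 against 858 and 1077 (log2 change 0.51 ± 0.13 SE, limma adjusted p 0.208), and Pdcl was at 774 and 559.7 against 316 and 437 (0.49 ± 0.14, adjusted p 0.235). The median relative change of the list was 0.033, so most of these differences were close in size to the shift of all tested genes.

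**Figure D4:**
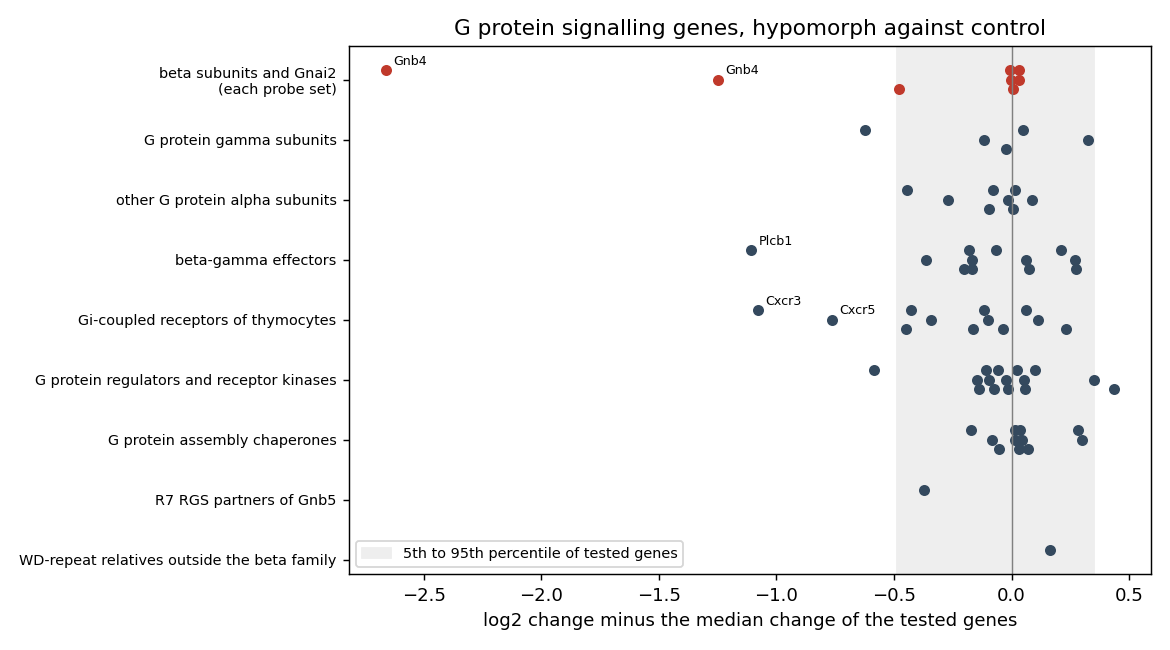
Log2 change minus the median change of the tested genes for each tested probe set of the beta subunits and Gnai2 (red) and for the tested genes of the 8 signalling lists (dark points, 1 probe set per gene). The grey band runs from the 5th to the 95th percentile of all tested genes (-0.49 to 0.35), and both Gnb4 points lie outside it, as do Plcb1, Cxcr3, Cxcr5, Gng3 and Rgs18 on the lower side and Gpsm2 on the upper side.

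The genes that surround Gnb4 on mouse chromosome 3 were read in the same way. The 10 nearest protein-coding genes on each side that the arrays name gave 20 genes, of which 15 passed the filter and 0 were called in limma (background 0.0391%), and 4 had an unadjusted p under 0.05, as 19.1% of all tested genes did. Mfn1, a mitochondrial fusion GTPase and the nearest gene on one side, had signals of 214 and 141 in hypomorphs against 85.0 and 129 in controls, a relative change of 0.18. Actl6a, an actin-like chromatin remodelling subunit and the nearest on the other side, was at 1051 and 836 against 579 and 561, a relative change of 0.18. The next genes, Zfp639 and Mrpl47, were at 0.14 and 0.064. Over the 15 tested neighbours relative changes ran from -0.36 to 0.56, with 0 lower and 10 higher without an overlap between the groups, where 4.9% and 51.7% of all tested genes were. The highest was Atp11b, a phospholipid flippase gene 10 places away (log2 change 0.77 ± 0.15 SE, limma adjusted p 0.148), which was called without hypomorph replicate 1 (adjusted p 0.0148, and 0.0148 to 0.713 among the alternatives). Neither Gnb4 value lay within the range of its neighbours.

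**Figure D5:**
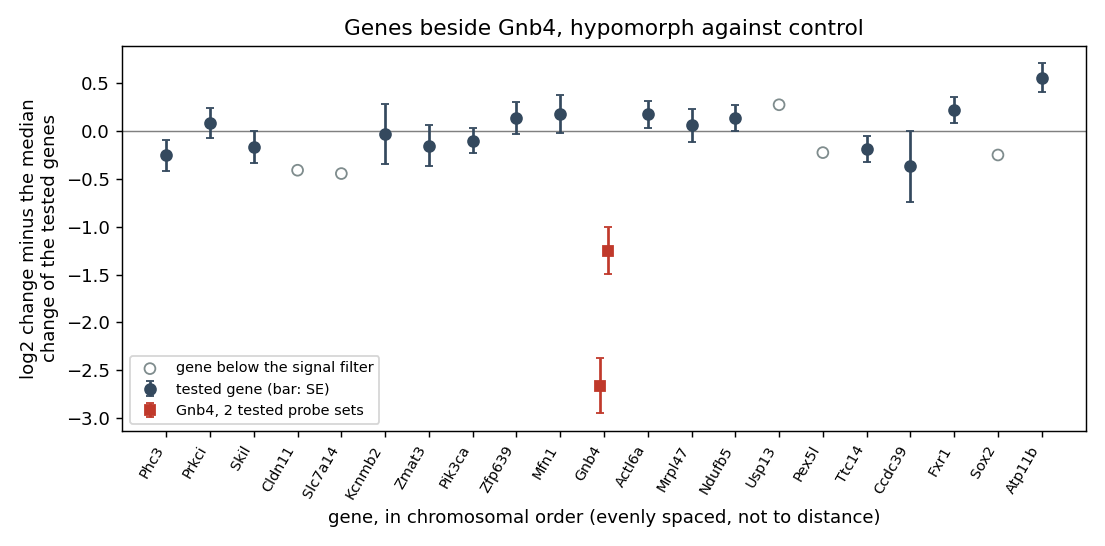
Log2 change minus the median change of the tested genes for Gnb4 (red squares, each tested probe set) and the 10 genes on either side of it in chromosomal order, with the SE of the fit; open circles are genes below the signal filter. The tested neighbours lie between -0.36 and 0.56, above both Gnb4 values.

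Markers of some other cells of the thymus lay mostly below the median of the tested genes, and none of them passed the test. Of the tested markers, 6 of 7 for B cells, 7 of 8 for dendritic cells, 7 of 7 for macrophages and 8 of 8 for natural killer and innate-like T cells lay below the median, where 50% of all tested genes do. The same held under quantile normalization for 6, 6, 7 and 8 of them. None was called in limma, and 2, 2, 1 and 2 of them had an unadjusted p under 0.05, against 19.1% of all tested genes. Summed over each list, centred signals in hypomorph and control arrays were 908 to 912 and 1055 to 1177 for B cells, 2823 to 2955 and 3272 to 3623 for dendritic cells, 411 to 653 and 615 to 708 for macrophages, and 1820 to 1849 and 1859 to 1862 for natural killer and innate-like T cells. The medians of their relative changes were -0.64, -0.39, -0.52 and -0.69, and with single arrays left out that of macrophages ran from -1.12 (hypomorph replicate 1 left out) to -0.15 (hypomorph replicate 2 left out) and that of dendritic cells from -0.65 (control replicate 2 left out) to -0.10 (control replicate 1 left out). H2-Aa, Cd74 and H2-Ab1 gave most of the dendritic cell sum, so it says little of the other markers of that list. Jchain gave the largest single part of the B cell sum. Most of the summed signal of natural killer and innate-like T cell markers came from Gzma. Its log2 change was 0.17, against a median of -0.48 for the 8 tested genes of that list. The lowest signal in the table was 0.0559, so no marker was listed at 0. The part of these cells in the Gnb4 values was not tested.

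Granulocyte markers differed between the control animals. Their summed centred signal was 651 on control replicate 1 and 5681 on control replicate 2, with 2174 and 3627 on the hypomorph arrays. Control replicate 2 was thus the higher control array for both Gnb4 and granulocyte markers. The hypomorph arrays lay between the controls for these markers and below both for Gnb4, and the part of granulocytes in the Gnb4 values was not tested. The median relative change of the 5 tested markers was 0.21, and became -1.20 with control replicate 1 left out and 1.71 with control replicate 2 left out. The pattern of control replicate 2 above control replicate 1 above both hypomorph arrays was found in 2.29% of tested genes. It was found for 0 of 5 granulocyte markers and for 1 gene of each of the lists above, Cd22 for B cells, Ccl17 for dendritic cells, Csf1r for macrophages and Klrk1 for natural killer and innate-like T cells. It was also found for 2 of the 12 receptors, Ccr9 and Cxcr5, and for Gnb5 1422208_a_at. Erythroid markers were at sums of 780 to 824 in hypomorphs and 556 to 597 in controls, stromal and endothelial markers at 397 to 406 and 372 to 408, and thymocyte markers at 32846 to 36719 and 30003 to 36170. Of the tested markers, 4 of 5 stromal and endothelial ones and 7 of 11 thymocyte ones also lay below the median of the tested genes. The medians of their relative changes were -0.27 and -0.063. Most of the erythroid sum came from Tfrc alone, with deposited signals of 869 and 588 against 344 and 449. Of 7 erythroid markers 3 passed the filter, with 2 above the median of the tested genes, 1 below it and 0 called.

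The genes whose pattern was most like that of Gnb4 were found by the Euclidean distance between log2 signals over the 4 arrays, each minus its mean, among 18773 tested probe sets with 1 symbol. For 1419470_at, the brightest Gnb4 probe set, the nearest genes were Pou6f1, a POU-domain transcription factor (distance 0.25), Pi4kb, a phosphatidylinositol 4-kinase (0.32), Pole3 (0.33), Cwc25 (0.35) and Wnt7a (0.36). Pou6f1 had signals of 213 and 189.8 in hypomorphs against 274 and 426 in controls. The same search for 1419469_at was added after its values were seen, and gave Atg16l1 (1.09), 1 probe set of Ramp1 (1.11), Sag (1.35), Htr1b (1.36) and Stk25 (1.41). These distances were wider than those above, and Sag (signals of 19.7 to 55.7) and Htr1b (14.6 to 65.1) were dim as well. The Gnb4 probe sets lay 1.48 apart from each other. Atg16l1 is the gene altered in the hypomorphs, and the positions of Ramp1, Sag and Stk25 relative to it were not read. A small distance here means a fall of like size on the same arrays, and shared regulation with Gnb4 was not tested.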

How the data were processed

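RNA from 4 thymus samples was biotin-labelled for Affymetrix arrays, per the labels' protocols. The deposited signals are linear intensity values from GCOS, the array software, per the submitters' processing notes, whose version and scaling the sources used here do not give. Of 45101 probe sets, 64 controls were left out. Among the rest, 34945 carried 1 symbol, 932 several and 9160 none, and only the first kind named genes. A pseudocount of 2.29 (10th percentile of signals) was added before taking log2, which understates fold changes of dim genes, and arrays were then centred to a common median. The 22519 probe sets with a mean at or above the median of means were fitted with limma 3.58.1 in R 4.3.3 (variance trend, no covariate). Each SE is from the moderated variance of that fit, with 10.95 degrees of freedom at the median, where the arrays alone give 2. P-values were adjusted over all of them by Benjamini-Hochberg with a threshold of 0.05. With 2 arrays per group the smallest exact permutation p is 0.333. The fit was run on simulated data that met its own assumptions, which cannot show how it does on these 4 arrays. RefSeq's gene table (GRCm38.p6) gave gene order only. Named genes were the family, Atg16l1, called genes or those of smallest p in each list, neighbours that were called or nearest, and nearest patterns. Further list genes of known role, Atp11b and single markers were added after their values were seen. The members and lists were chosen with earlier results of these data known. Alternatives were other scalings, pseudocounts and filters, no variance trend, a replicate block and leaving out each array.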

Additional observations from a re-analysis of the deposited data

How the results depend on the processing

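Over the alternatives run, the log2 change of Gnb4 stayed below 0 on both tested probe sets. The number of member probe sets called lower was 1, and it was 0 with quantile normalization, without a filter and without the variance trend, and between 1 and 2 when single arrays were left out. The 14 calls over all probe sets became 4 with quantile normalization, 84 without centring, 7 with centring on the tested probe sets (4 higher and 3 lower, against 11 and 3 as reported), 4 without a filter, 0 without the variance trend (2492 probe sets with an unadjusted p under 0.05 in limma) and 8 (without control replicate 1) to 340 (without hypomorph replicate 1) when single arrays were left out. Such a fit assumes that the lone array of a group varies like the other group. Signalling list genes and neighbours of Gnb4 called were 0 each, and 0 to 1 each when single arrays were left out. With the replicate number as a block 9 probe sets were called, among them Gnb4 1419469_at. Nothing is read from that call, since the same contrast led to the family. The correlation of same-numbered deviations was 0.0819 over the tested probe sets. Such a value cannot show whether same-numbered arrays share a factor, such as sex, that moves few genes. The median log2 change of the tested genes was 0.54 without centring, 0.037 with centring on the tested probe sets and 0.023 with quantile normalization. Of genes named with no call, the sign of the log2 change turned with quantile normalization for Gnb1 1417432_a_at (-0.027), Gnb2 (-0.019), Gna13 (-0.037), Gnas (-0.063), Gng2 (-0.0099), Grk6 (-0.028) and S1pr1 (-0.047). It turned without centring for Gnb5 1422208_a_at (0.061), Ccr9 (0.11) and Rgs9 (0.17), and with centring on the tested probe sets for Gnas (-0.060), Gng2 (-0.081) and S1pr1 (-0.081). When single arrays were left out the log2 change ran from -0.055 to 0.28 for Gnas, -0.093 to 0.28 for Gng2, -0.82 to 0.0030 for Gng3, -0.026 to 0.40 for Gngt2, -0.052 to 0.44 for Grk6 and -0.040 to 0.23 for S1pr1. The cause was not tested. Detection calls were not used here, so how far dim probe sets lie above background is unknown.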
